A study of Mus musculus with 30 samples.

Results

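The genes described here are 31 genes of cholesterol and fatty acid synthesis, chosen by name and found by their Ensembl identifiers among the 55487 identifiers of one read count table from a mouse model of oral squamous cell carcinoma. They comprise 4 regulators of lipid synthesis, 18 enzymes that lead from acetyl-CoA to cholesterol, 1 sterol carrier, 3 enzymes that supply or build fatty acids, 4 fatty acid desaturases and 1 phosphatidate phosphatase. All 31 were found, and all 31 passed the filter on low counts that left 17638 genes for testing.

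The samples were bulk RNA of oral tissue from male C57BL/6J mice with no engineered allele. Per the labels' protocol, mice were given 4-nitroquinoline 1-oxide (4NQO), a carcinogen that forms DNA adducts, at 100 ug/mL in the drinking water for 10 weeks from 6 weeks of age. The protocol is attached to every sample, normal ones included, so whether the normal mice drank 4NQO is not known here. The age at sampling is not given in the sources used here. Samples were grouped by pathological stage into 3 normal (codes D01 to D03), 8 hyperplasia (A01 to A08), 7 dysplasia (B01 to B07), 6 carcinoma in situ and 6 invasive carcinoma samples (both from codes C01 to C12), called the in situ and the invasive stage below. The letter of the code follows the stage, except that both carcinoma stages share the letter C, so elsewhere an effect of what the letter stands for and an effect of stage cannot be told apart.

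Libraries held between 17725604 and 28023098 counts. Every sample carries the same tissue label, oral squamous cell carcinoma, also the normal ones. Basal keratinocyte markers (7 genes, Krt5 and Krt14 among them) summed to at least 4416 CPM (read counts scaled to a common library size with TMM factors) in every sample, and 19 skeletal muscle markers to at least 19039 CPM. Salivary gland markers were uneven between samples of the same stage, at most 35889 CPM in dysplasia sample B01 and at least 22.9 CPM in B06, so the tissue pieces differed in what they held. In such bulk samples, fewer cells of a type and less RNA per cell cannot be told apart.

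Cells make cholesterol from acetyl-CoA. HMG-CoA is reduced to mevalonate, mevalonate is turned into isoprenoid units, these are joined to squalene, and squalene is closed to lanosterol and trimmed to cholesterol. The transcription factors SREBP-1 (Srebf1) and SREBP-2 (Srebf2) are held in the endoplasmic reticulum with their escort SCAP by INSIG proteins while sterols are plentiful; when sterols are scarce they travel to the Golgi, are cut free and switch on the genes of fatty acid and sterol synthesis. In stratified epithelia such as oral mucosa, cholesterol and fatty acids also go into the lipid barrier between the upper cell layers.

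Because many of these genes share SREBP as a regulator, 5 promoters of different roles are shown: HMG-CoA synthase (Hmgcs1) and the decarboxylase Mvd at either end of the mevalonate steps, the thiolase that feeds them (Acat2), fatty acid synthase (Fasn) and Lpin1, the gene with the lowest fold change. Each is the 250 bases before the RefSeq start on assembly GRCm38.p6, 5′ to 3′ on the gene's strand, with matches in capitals to the sterol response core CACNCCAC, the CCAAT box CCAAT, the E-box CACGTG or the GC box GGGCGG, all searched on both strands.
Hmgcs1 (chr13:119690101-119690350, plus strand): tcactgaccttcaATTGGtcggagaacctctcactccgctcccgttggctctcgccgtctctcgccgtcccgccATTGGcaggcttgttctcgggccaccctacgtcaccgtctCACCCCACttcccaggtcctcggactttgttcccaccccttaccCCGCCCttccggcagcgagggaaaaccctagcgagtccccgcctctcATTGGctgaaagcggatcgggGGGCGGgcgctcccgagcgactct
Mvd (chr8:122443423-122443672, minus strand): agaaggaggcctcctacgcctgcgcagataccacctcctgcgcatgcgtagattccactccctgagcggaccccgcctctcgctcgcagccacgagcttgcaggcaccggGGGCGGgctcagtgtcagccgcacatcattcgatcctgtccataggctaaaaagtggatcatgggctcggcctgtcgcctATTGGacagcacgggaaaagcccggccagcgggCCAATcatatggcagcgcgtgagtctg
Acat2 (chr17:12960726-12960975, minus strand): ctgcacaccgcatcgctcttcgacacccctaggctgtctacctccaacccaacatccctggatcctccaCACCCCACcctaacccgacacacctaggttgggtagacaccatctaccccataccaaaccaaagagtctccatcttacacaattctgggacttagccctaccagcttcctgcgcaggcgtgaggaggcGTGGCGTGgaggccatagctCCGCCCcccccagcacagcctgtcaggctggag
Fasn (chr11:120824548-120824797, minus strand): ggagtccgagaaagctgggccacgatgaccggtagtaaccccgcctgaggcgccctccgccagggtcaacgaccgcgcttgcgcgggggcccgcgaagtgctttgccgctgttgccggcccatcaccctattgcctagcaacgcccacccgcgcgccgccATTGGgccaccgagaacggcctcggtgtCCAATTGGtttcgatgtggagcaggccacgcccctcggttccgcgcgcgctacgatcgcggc
Lpin1 (chr12:16610967-16611216, minus strand): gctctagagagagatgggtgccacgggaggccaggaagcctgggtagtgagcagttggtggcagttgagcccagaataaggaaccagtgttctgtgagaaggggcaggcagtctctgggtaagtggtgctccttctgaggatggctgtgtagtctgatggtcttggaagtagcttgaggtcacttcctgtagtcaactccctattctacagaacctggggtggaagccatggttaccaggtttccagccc

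The Hmgcs1 window held a core CACCCCAC that begins 136 bases before the start, 3 CCAAT boxes in the reverse form ATTGG and 2 GC boxes. The Acat2 window held 2 cores, at 181 and 53 bases before the start, and 1 GC box. In Mvd 2 CCAAT boxes and a GC box were found, and in Fasn 3 CCAAT boxes, of which the pair at 62 and 59 bases overlaps. None of the searched letters was found in the Lpin1 window. RefSeq gave 30 promoters for 24 of the 31 genes. The CCAAT box was present in 63.3% of these promoters, against 33.8% of all 32851 promoters of the same length, the GC box in 73.3% against 32.7%, the E-box in 16.7% against 6.02% and the core in 10% against 5.29%. A longer form of the sterol response element, with 2 more bases before the core, was in none of the 30 and in 0.192% of all promoters, and the core was searched after that. A match describes letters only and is not a bound site.

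Most enzymes of cholesterol synthesis were higher in the carcinoma stages than in normal tissue. In hyperplasia 3 of the 31 genes were called, or 9.68% against 14.3% of all tested genes. Of the 18 cholesterol enzymes 0 were higher in hyperplasia, 4 in dysplasia, 11 at the in situ stage and 12 at the invasive stage (edgeR quasi-likelihood test, adjusted p under 0.05), and Fdft1 was called lower at each of these stages but dysplasia, calls that were lost without D01. Over all 31 genes, 1 was higher and 2 were lower in hyperplasia than in normal tissue, where 14.3% of all 17638 tested genes were called (8.22% higher and 6.07% lower). In dysplasia 8 were higher and 1 lower, a share of 29% that lies near the background of 25.7% (13.3% higher and 12.4% lower). In carcinoma in situ 18 were higher and 2 lower, or 64.5% against a background of 37.6% (19.4% higher and 18.2% lower). In invasive carcinoma 19 were higher and 2 lower, or 67.7% against a background of 46.1% (23.4% higher and 22.7% lower). The median log2 fold change of the 31 genes was -0.01 in hyperplasia, 0.24 in dysplasia, 0.34 at the in situ stage and 0.40 at the invasive stage, while that of all tested genes lay between 0.01 and 0.02. These 4 comparisons share the same 3 normal samples. Among them D02 had the lowest CPM for most sterol genes, and without D02 the counts called were 3 in hyperplasia, 2 in dysplasia, 6 at the in situ stage and 14 at the invasive stage. Without D03, 12 genes were called in carcinoma in situ, and without B01, 15 in dysplasia. The shares of all tested genes called without these samples are not given here. Whether such shifts are particular to the 31 genes was not tested.

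Of the comparisons that use no normal sample, dysplasia against hyperplasia and carcinoma against premalignant tissue also gave more higher than lower calls. Between dysplasia and hyperplasia 12 of the 31 genes were higher and 0 lower, which is 38.7% of the genes against 5.18% of all tested genes (2.99% higher and 2.19% lower). The median log2 fold change was 0.29 for the 31 genes and -0.01 for all genes. Without B01 the count was 19, and without B06 it was 6, and the shares of all tested genes called then are not given here. Between carcinoma (the mean of both carcinoma stages) and premalignant tissue (the mean of hyperplasia and dysplasia) 19 genes were higher and 1 was lower, or 64.5% against a background of 38.4% (19.6% higher and 18.8% lower). Dysplasia against hyperplasia and invasive carcinoma against normal share no sample. Called higher in both were Srebf2, Mvd, Idi1, Sqle, Cyp51, Msmo1, Ebp and Stard4, 8 genes that make up 66.7% of the 12 in the first and 42.1% of the 19 in the second. Over all tested genes 309 were called higher in both, 58.6% of the 527 in the first and 7.5% of the 4120 in the second. In dysplasia against hyperplasia, the call of Cyp51 was lost without A01, A04, A07, A08, B03, B04, B05 or B06 (0.31 to 0.36) and that of Ebp without A01, A02, A04, A05, A08, B02, B03, B04, B06 or B07 (0.28 to 0.32). Hmgcs1, Lss, Fdps and Dhcr7 were called in the first and not in the second, but whether the 2 fold changes differ was not tested.

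The later steps showed no call. Between carcinoma in situ and dysplasia 0 of the 31 genes passed, against a background of 5.47% (2.99% higher and 2.47% lower); 5 had an unadjusted p under 0.05, DESeq2 called 2 and limma-voom called 3. The smallest adjusted p-values there were those of Insig1 (log2 fold change 0.55 ± 0.18 SE, adjusted p = 0.0656) and Scd2 (0.46, adjusted p = 0.0716). Between invasive carcinoma and carcinoma in situ 0 of the 31 genes passed and 0% of all genes; 2 of the 31 and 1259 of all genes had an unadjusted p under 0.05, and DESeq2 and limma-voom called none of the 31.

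**Figure D1:**
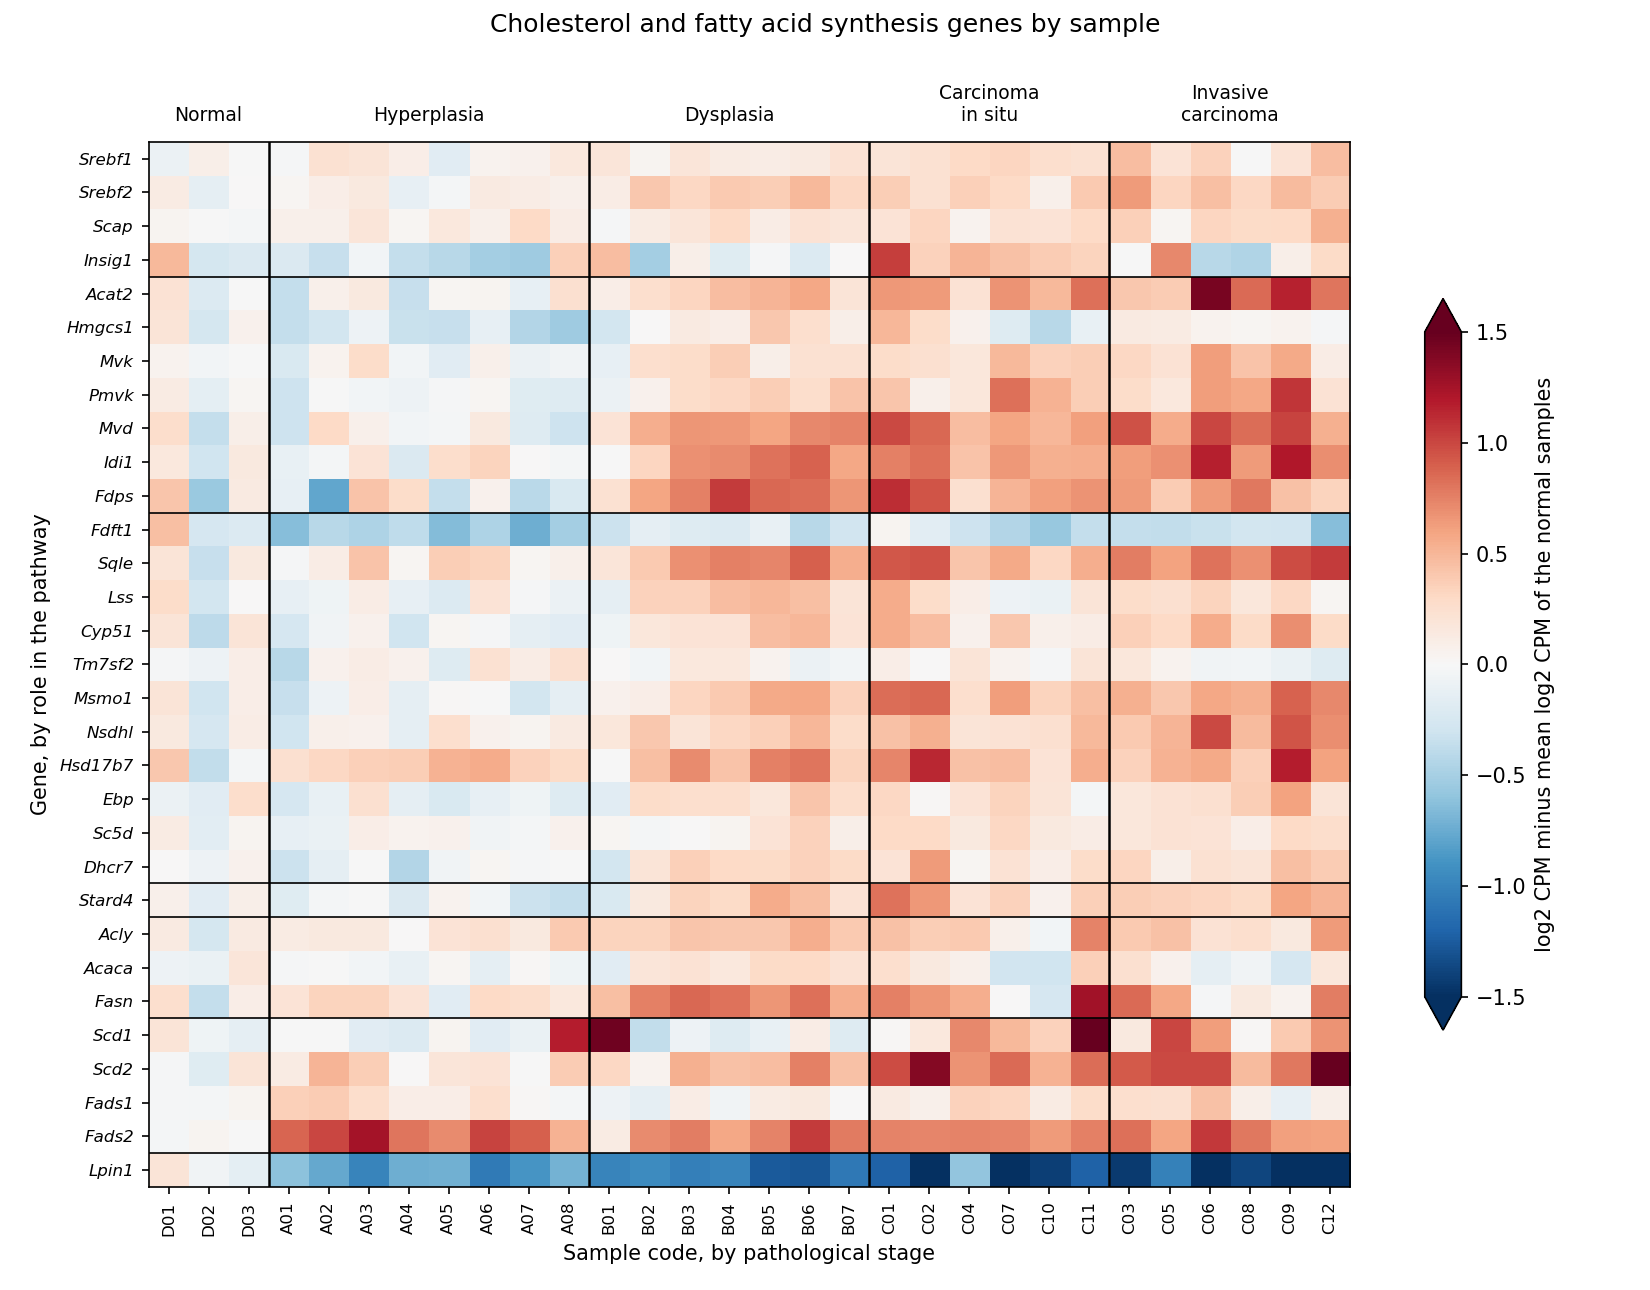
Each row is 1 of the 31 genes, ordered by role, and each column 1 of the 30 samples, ordered by stage; the colour is the gene's log2 CPM minus its mean log2 CPM in the 3 normal samples, with the darkest colours for values beyond 1.5 in either direction. Most rows of the mevalonate and sterol enzymes are redder from dysplasia onwards, and the Lpin1 row is blue in every sample that is not normal.

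**Figure D2:**
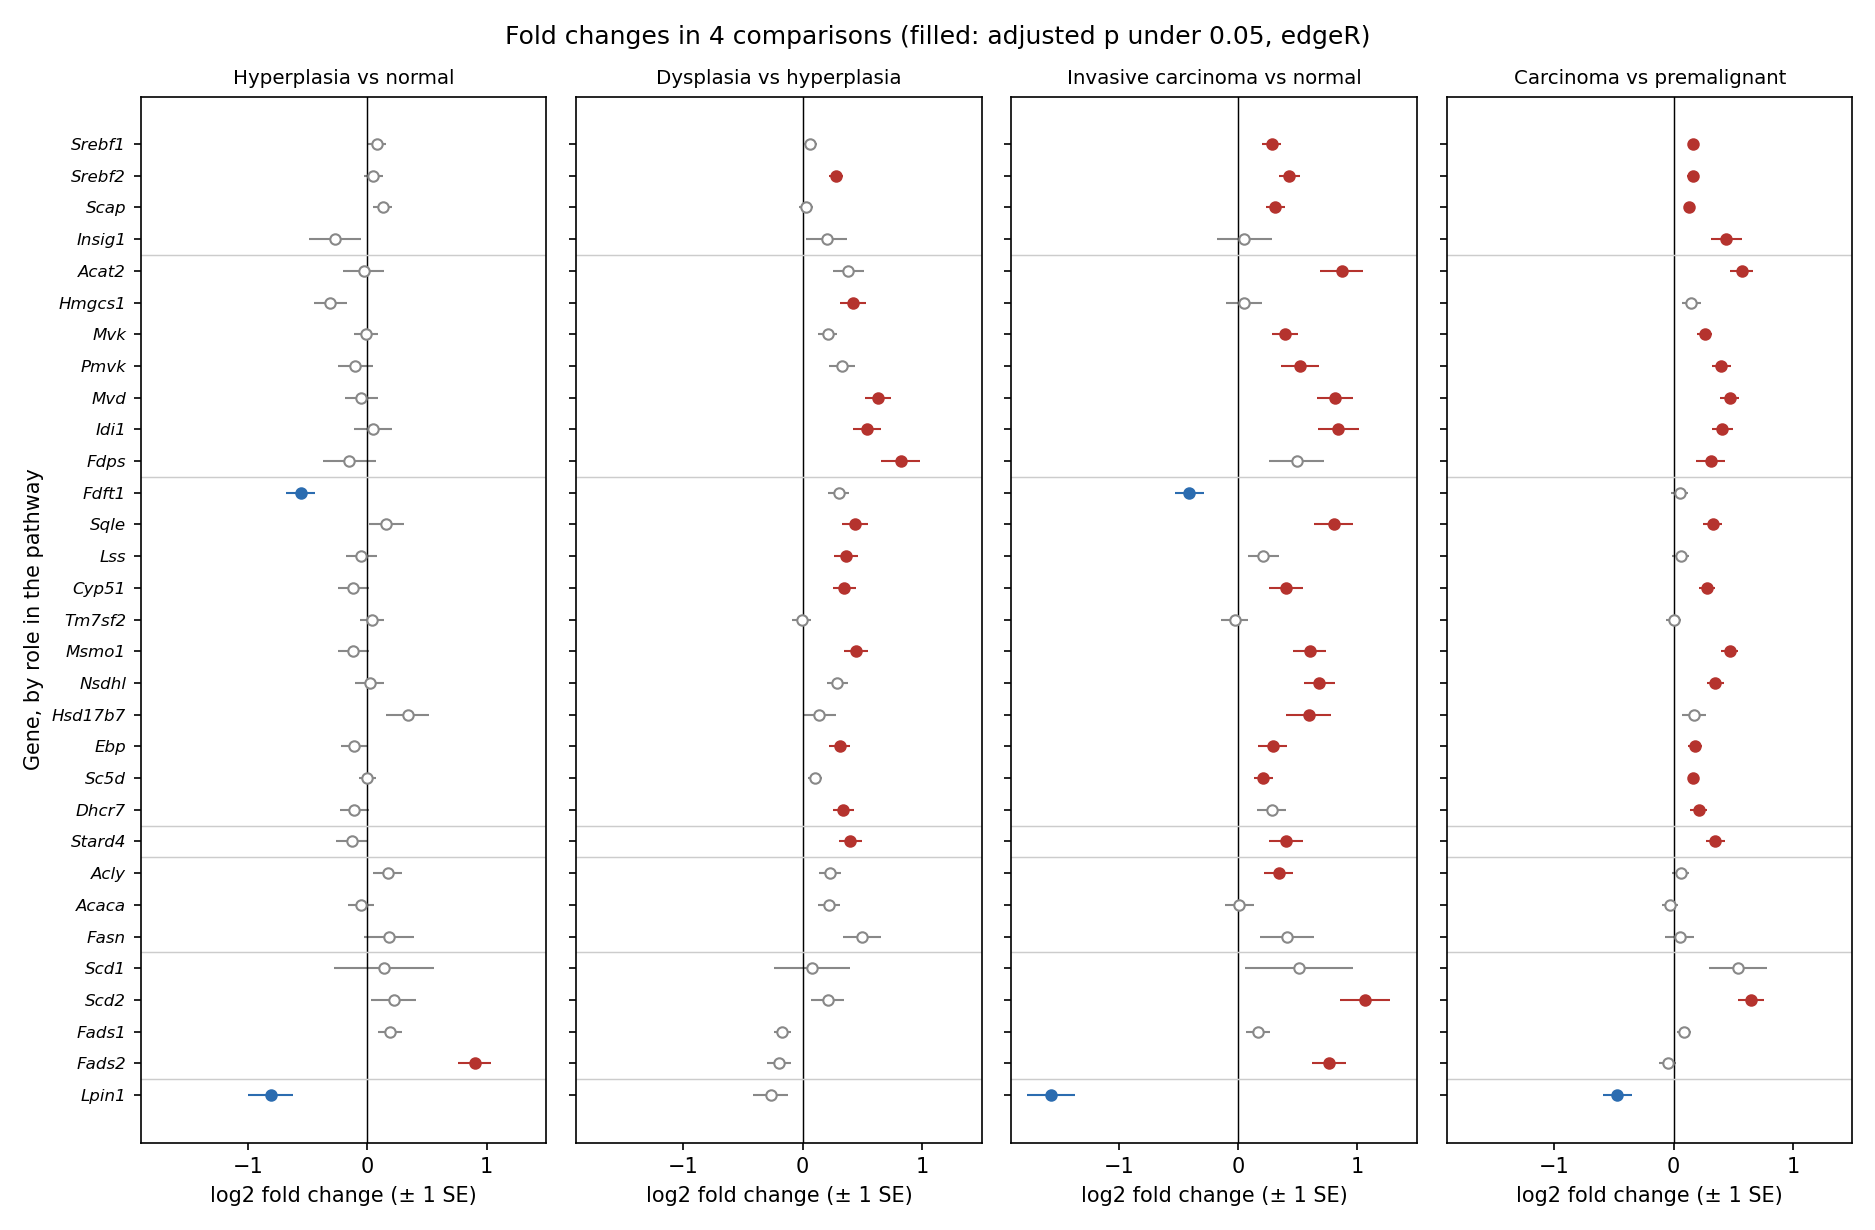
Log2 fold changes with 1 SE on each side for the 31 genes in 4 comparisons, with the stage named first over the stage named second; filled points passed the edgeR quasi-likelihood test at an adjusted p under 0.05. In hyperplasia against normal 3 points are filled, against 12 in dysplasia against hyperplasia, 21 in invasive carcinoma against normal and 20 in carcinoma against premalignant tissue.

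Markers of several cell types also differed between stages, those of basal keratinocytes and skeletal muscle among them. Basal keratinocyte markers summed to medians of 5001 CPM in normal tissue, 7076 in hyperplasia, 8400 in dysplasia, 10535 at the in situ stage and 11829 at the invasive stage, with ranges of 8232 to 20792 CPM in invasive carcinoma and 4416 to 5821 CPM in normal tissue. Of these 7 markers 6 were called higher in invasive carcinoma. Skeletal muscle markers summed to 19039 to 47172 CPM in invasive carcinoma and 64172 to 86758 CPM in normal tissue, and 17 of the 19 were called lower. No marker of either list was at 0 in all samples of a stage. In invasive carcinoma against normal 5 of 5 endothelial and 6 of 8 tested Schwann cell markers were also lower, and 9 of 10 proliferation genes were higher. Endothelial markers summed to 133 to 226 CPM in invasive carcinoma and 285 to 344 CPM in normal tissue, Schwann cell markers to 70.8 to 143 and 177 to 313 CPM, and proliferation genes to 388 to 572 and 242 to 365 CPM. At the in situ stage the counts were 4, 6 and 9, and in carcinoma against premalignant tissue 5, 7 and 5. Of 8 leukocyte markers 4 were higher and 1 lower in invasive carcinoma against normal, and 4 of 5 fibroblast markers were lower in carcinoma than in premalignant tissue. Not every list followed the counts of the 31 genes at each step. Of 10 proliferation genes 8 were higher in hyperplasia against normal, and 0 were called in dysplasia against hyperplasia. In the latter comparison 1 of 7 basal and 2 of 9 suprabasal keratinocyte markers were higher, and 2 of 19 skeletal muscle markers were lower. Of the 9 suprabasal markers 3 were higher and 3 lower in invasive carcinoma against normal. The part of these other lists in the calls was not tested. With the basal keratinocyte score of each sample in the fit, 3 of the 31 genes were called in hyperplasia, 1 in dysplasia, 0 at the in situ stage and 1 at the invasive stage against normal, 3 in dysplasia against hyperplasia and 2 in carcinoma against premalignant tissue. With the skeletal muscle score the same counts were 3, 2, 4, 5, 4 and 16. Adding the adipocyte or the salivary gland score left these 6 counts within 1.5 times. The shares of all tested genes called with a score in the fit are not given here. Whether the lower counts are particular to the 31 genes was not tested.

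Among the regulators, Srebf2, which encodes the main activator of sterol synthesis genes, passed in 5 of the 8 comparisons. Its CPM was 128, 107 and 118 in the normal samples; the lowest, median and highest values were 108, 125 and 130.0 in hyperplasia, 127, 152 and 164 in dysplasia, 124, 147 and 154 at the in situ stage and 145, 157 and 183 at the invasive stage. All 6 invasive samples lay above every normal sample, and 6 of the 7 dysplasia samples lay above every hyperplasia sample. Srebf2 had a log2 fold change of 0.43 ± 0.09 (SE, adjusted p = 2.9e-04) in invasive carcinoma against normal and 0.28 ± 0.06 (adjusted p = 0.00639) in dysplasia against hyperplasia. In dysplasia and carcinoma in situ against normal it was 0.34 and 0.29, both called, and neither passed without D02 (0.27, adjusted p = 0.0905, and 0.23, adjusted p = 0.104).

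Srebf1, the SREBP that acts more on fatty acid genes, and Scap, the escort of both SREBPs, had smaller fold changes. Srebf1 averaged 72.3 ± 8.72 CPM in invasive carcinoma (SD, n = 6) and 59.4 ± 3.55 CPM in normal tissue (SD, n = 3), with a log2 fold change of 0.28 ± 0.08 (SE, adjusted p = 0.00663). Scap had a log2 fold change of 0.31 ± 0.08 (adjusted p = 0.00225) in the same comparison; in carcinoma in situ against normal it was 0.22 ± 0.08 (adjusted p = 0.0297), and that call was lost without any 1 of the 3 normal samples (0.21 to 0.25), and without C02, C07, C10 or C11 (0.20 to 0.22). Insig1, which retains SCAP in the endoplasmic reticulum and is itself an SREBP target, passed in 1 of the 8 comparisons, carcinoma against premalignant tissue (0.44 ± 0.13, adjusted p = 0.008). Its CPM was 44.8 in D01 but 26.8 and 27.5 in D02 and D03. The values were 22.1 to 41.1 CPM in hyperplasia, 22.6 to 44.1 in dysplasia, 40.3 to 65.9 at the in situ stage and 23.4 to 52.7 at the invasive stage, so the lowest carcinoma in situ sample lay above 7 of the 8 hyperplasia and 6 of the 7 dysplasia samples. D01, A08 and B01, the highest Insig1 samples of their stages, were also the highest of their stages in salivary gland markers. The highest Insig1 samples of the 2 carcinoma stages were not. At the in situ stage C01 had a salivary gland sum of 3078 CPM, against 9409 in C04. At the invasive stage C05 had 8490 CPM, against 13703 in C12.

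The mevalonate steps run from Acat2 and Hmgcs1, which build HMG-CoA, to Fdps, which makes farnesyl diphosphate. Of these 7 genes 0 were called in hyperplasia, 3 were higher in dysplasia, 6 at the in situ stage and 5 at the invasive stage against normal, and 4 were higher in dysplasia against hyperplasia. That is 42.9%, 85.7% and 71.4% of the 7 at the last 3 stages, against 13.3%, 19.4% and 23.4% of all tested genes called higher. In hyperplasia against normal 14.3% of all tested genes were called. For dysplasia against hyperplasia the share is 57.1% of the 7, against 2.99% of all tested genes called higher.

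Mvd (ENSMUSG00000006517.5, chr8:122433601-122443422, minus strand) encodes the decarboxylase that ends the mevalonate steps proper, and its promoter is printed above. It had 22.3, 14.5 and 19.8 CPM in the normal samples; the lowest, median and highest values were 15.0, 18.1 and 22.9 in hyperplasia, 21.4, 29.2 and 31.2 in dysplasia, 25.5, 28.2 and 37.0 at the in situ stage and 26.8, 34.7 and 37.6 at the invasive stage. Hyperplasia overlapped normal tissue, whereas every carcinoma sample lay above every normal sample, and 6 of the 7 dysplasia samples lay above every hyperplasia sample, all but B01. Mvd averaged 33.1 ± 4.9 CPM in invasive carcinoma (SD, n = 6) and 18.9 ± 3.96 CPM in normal tissue (SD, n = 3). This is a log2 fold change of 0.81 ± 0.15 (SE, adjusted p = 1.7e-04), against one of 0.63 ± 0.11 (adjusted p = 8.1e-04) in dysplasia against hyperplasia. It was 0.66 ± 0.15 (adjusted p = 0.00173) in carcinoma in situ against normal, and in dysplasia against normal 0.58 ± 0.15 (adjusted p = 0.00689), or 0.42 without D02 (adjusted p = 0.114).

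Idi1 (ENSMUSG00000058258.14, chr13:8885501-8892451, plus strand), the isomerase that interconverts the 2 isoprenoid building blocks, followed the same order of stages. Its CPM was 31.2, 22.7 and 31 in the normal samples; the lowest, median and highest values were 24.0, 27.8 and 35.4 in hyperplasia, 28.0, 45.0 and 51.8 in dysplasia, 37.7, 42.5 and 49.7 at the in situ stage and 43.1, 45.2 and 64.3 at the invasive stage. Again all carcinoma samples exceeded all normal samples and hyperplasia overlapped them. Idi1 had a log2 fold change of 0.84 ± 0.17 (SE, adjusted p = 2.7e-04) in invasive carcinoma against normal and 0.54 ± 0.12 (adjusted p = 0.00697) in dysplasia against hyperplasia. Against normal it was 0.61 in carcinoma in situ and 0.58 in dysplasia, both called, and 0.48 (adjusted p = 0.0696) and 0.44 (adjusted p = 0.136) without D02.

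Acat2 (ENSMUSG00000023832.14, chr17:12942890-12960747, minus strand), the cytosolic thiolase that makes acetoacetyl-CoA, differed most in the carcinoma stages. It had 19.0, 14.1 and 16.2 CPM in the normal samples; the lowest, median and highest values were 12.7, 16.7 and 19.3 in hyperplasia, 17.5, 20.4 and 24.4 in dysplasia, 19.0, 25.5 and 28.9 at the in situ stage and 21.3, 28.9 and 43.6 at the invasive stage. The invasive samples spread widely, with an SD of 8.66 CPM around a mean of 30.1 CPM, yet all 6 lay above the normal samples. Acat2 had a log2 fold change of 0.87 ± 0.18 (SE, adjusted p = 3.8e-04) in invasive carcinoma against normal and 0.57 ± 0.10 (adjusted p = 6.8e-05) in carcinoma against premalignant tissue. At the in situ stage it was 0.58 ± 0.18 against normal (adjusted p = 0.012), or 0.49 without D02 (adjusted p = 0.0891). Mouse Acat2 has a near-identical neighbouring copy, Acat3, and reads that fit both may have been divided between them, so its level is uncertain.

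Pmvk, the second kinase of the pathway, and Mvk, the first, were each called higher in both carcinoma stages. Pmvk had 45.3, 37.5 and 42.3 CPM in the normal samples; the lowest, median and highest values were 33.6, 40.0 and 42.5 in hyperplasia, 39.0, 50.3 and 56.0 in dysplasia, 43.7, 54.5 and 74.0 at the in situ stage and 46.4, 56.2 and 87.1 at the invasive stage. Hyperplasia lay within or below the normal range, and every invasive sample lay above it. At the in situ stage 5 of 6 samples lay above the normal range, and the log2 fold change of 0.41 ± 0.16 against normal (SE, adjusted p = 0.04) did not pass without D02, D03, C01, C07, C10 or C11 (0.31 to 0.43). It was 0.52 ± 0.16 (adjusted p = 0.00894) in invasive carcinoma against normal, or 0.45 without D02 (adjusted p = 0.063), and 0.40 ± 0.08 (adjusted p = 6.9e-04) in carcinoma against premalignant tissue. For Mvk the log2 fold changes were 0.39 ± 0.11 (adjusted p = 0.00521) and 0.26 ± 0.06 (adjusted p = 0.0012), and 0.31 ± 0.11 (adjusted p = 0.0245) at the in situ stage against normal, which did not pass without D02, D03 or C07 (0.28 to 0.31).

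Hmgcs1 and Fdps, near either end of the mevalonate steps, did not pass in invasive carcinoma against normal. Hmgcs1 (ENSMUSG00000093930.2, chr13:119690379-119708260, plus strand), HMG-CoA synthase, had the highest level per exon length of the 31 genes in normal tissue, 45.4 CPM per kb. It had 237, 173 and 216 CPM in the normal samples; the lowest, median and highest values were 143, 164 and 197 in hyperplasia, 171, 222 and 273 in dysplasia, 155, 204 and 293 at the in situ stage and 205, 215 and 228 at the invasive stage. Every later stage overlapped normal tissue, and 6 of the 8 hyperplasia samples lay below all normal samples. Hmgcs1 passed in dysplasia against hyperplasia (log2 fold change 0.42 ± 0.11, adjusted p = 0.0197) but not without B05 (0.37, adjusted p = 0.0554). Against normal its log2 fold change was 0.05 ± 0.15 (adjusted p = 0.789) in invasive carcinoma and -0.31 ± 0.14 (adjusted p = 0.123) in hyperplasia.

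Fdps, at 34 to 164 counts per sample, was the lowest of the 31 genes. Its CPM was 3.74, 1.91 and 3.08 in the normal samples, 1.63 to 3.78 in hyperplasia, 3.27 to 5.8 in dysplasia, 3.32 to 6.02 at the in situ stage and 3.54 to 4.83 at the invasive stage. It had the largest log2 fold change of the 31 in dysplasia against hyperplasia, 0.82 ± 0.16 (adjusted p = 0.00268), with 6 of 7 dysplasia samples above all hyperplasia samples. Against normal Fdps had log2 fold changes of 0.68 ± 0.22 in dysplasia (adjusted p = 0.0269), 0.65 ± 0.23 at the in situ stage (adjusted p = 0.0252) and 0.49 at the invasive stage (adjusted p = 0.0752). Neither call held without D02 (0.45 and 0.43) or D03 (0.71 and 0.70), nor did the first without B04 or the second without C01 or C02. An annotated gene of the same strand, Gm43738, overlaps 1124 exon bases of Fdps and held 0 counts, so how reads there were counted bears on the level of Fdps.

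**Figure D3:**
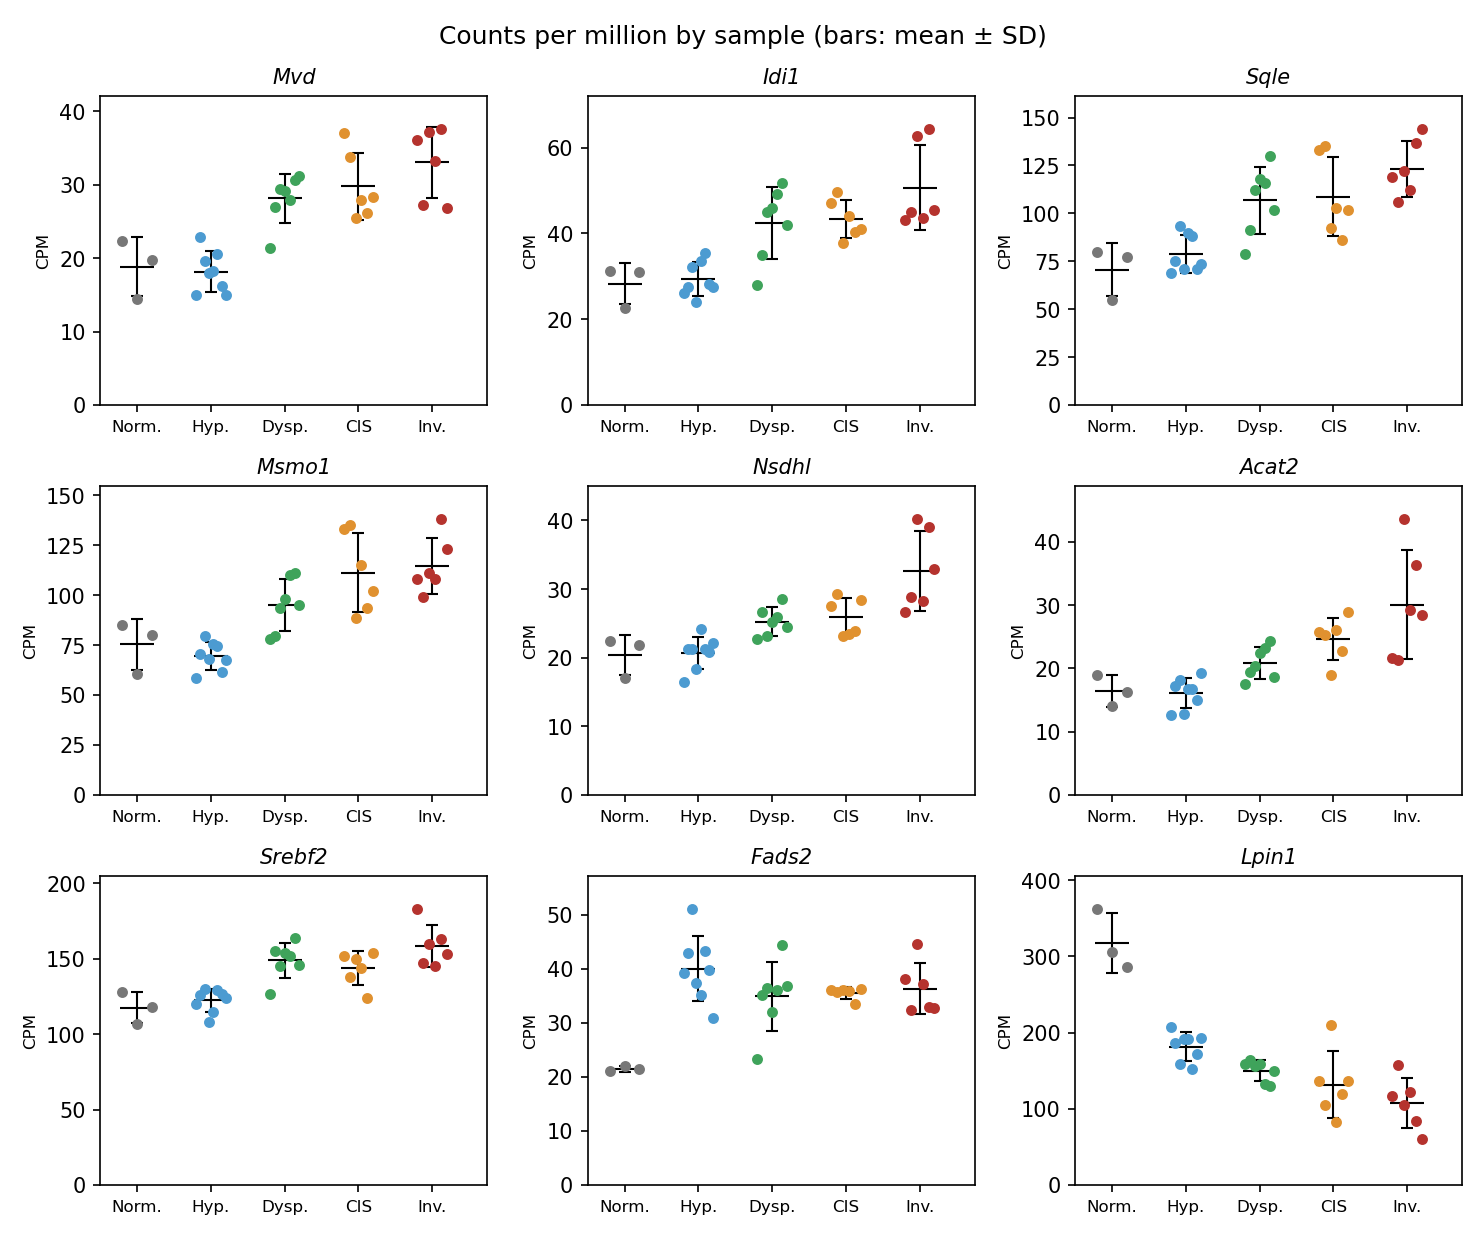
CPM of 9 genes in every sample by stage (Norm., normal; Hyp., hyperplasia; Dysp., dysplasia; CIS, carcinoma in situ; Inv., invasive carcinoma), each point 1 sample, with bars for the mean and SD. Mvd is at 26.8 to 37.6 CPM in invasive carcinoma and 14.5 to 22.3 CPM in normal tissue, Fads2 is already higher in hyperplasia, and Lpin1 is lower in every later stage.

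The 11 genes of the squalene and sterol steps, from Fdft1, which makes squalene, to Dhcr7, which makes cholesterol in one branch, gave 1 lower in hyperplasia and 1 higher in dysplasia against normal. Each is 9.09% of the 11, against 6.07% of all tested genes called lower in hyperplasia and 13.3% called higher in dysplasia. At the in situ stage 5 were higher and 1 lower, or 54.5% called against 37.6% of all tested genes, and at the invasive stage 7 were higher and 1 lower, or 72.7% against 46.1%. The lower gene was Fdft1 each time. Between dysplasia and hyperplasia 6 were higher, or 54.5%, against 2.99% of all tested genes called higher.

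Sqle (ENSMUSG00000022351.14, chr15:59315077-59331192, plus strand) encodes squalene epoxidase, the first oxygen-requiring and a rate-limiting step. It had 79.7, 54.8 and 77.3 CPM in the normal samples; the lowest, median and highest values were 69.0, 74.5 and 93.5 in hyperplasia, 78.7, 112 and 130.0 in dysplasia, 86.3, 102 and 135 at the in situ stage and 106, 120.0 and 144 at the invasive stage. All carcinoma samples lay above all normal samples. Its mean was 123 ± 14.4 CPM in invasive carcinoma (SD, n = 6) and 70.6 ± 13.7 CPM in normal tissue (SD, n = 3), a log2 fold change of 0.80 ± 0.16 (SE, adjusted p = 2.1e-04). In dysplasia against hyperplasia it was 0.44 ± 0.11 (adjusted p = 0.0188), or 0.39 without B06 (adjusted p = 0.061). In carcinoma in situ and dysplasia against normal it was 0.62 and 0.60, both called, and 0.47 (adjusted p = 0.0543) and 0.44 (adjusted p = 0.112) without D02.

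Msmo1 (ENSMUSG00000031604.10, chr8:64718139-64733792, minus strand), the sterol methyl oxidase, and Nsdhl (ENSMUSG00000031349.4, chrX:72918557-72958514, plus strand), the dehydrogenase that follows it in removing methyl groups from lanosterol's products, were higher in both carcinoma stages. Msmo1 had 85.2, 60.6 and 80.0 CPM in the normal samples; the lowest, median and highest values were 58.4, 69.1 and 79.6 in hyperplasia, 77.9, 94.8 and 111 in dysplasia, 88.4, 108 and 135 at the in situ stage and 98.9, 109 and 138 at the invasive stage. Hyperplasia lay within or below the normal range, and every carcinoma sample lay above it. For Msmo1 the log2 fold change was 0.56 ± 0.14 (SE, adjusted p = 0.00302) in carcinoma in situ against normal, or 0.43 without D02 (adjusted p = 0.0544). It was 0.60 ± 0.14 (adjusted p = 0.00107) in invasive carcinoma against normal, 0.45 ± 0.10 (adjusted p = 0.00708) in dysplasia against hyperplasia and 0.47 ± 0.07 (adjusted p = 4.5e-05) in carcinoma against premalignant tissue.

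Nsdhl had 22.4, 17.0 and 21.8 CPM in the normal samples; the lowest, median and highest values were 16.4, 21.2 and 24.2 in hyperplasia, 22.7, 25.2 and 28.6 in dysplasia, 23.2, 25.7 and 29.3 at the in situ stage and 26.6, 30.9 and 40.2 at the invasive stage. All 7 dysplasia and all 12 carcinoma samples lay above the normal range. Nsdhl had a log2 fold change of 0.68 ± 0.13 (SE, adjusted p = 1.7e-04) in invasive carcinoma against normal and 0.31 (adjusted p = 0.067) in dysplasia against normal. Of the 31 genes Nsdhl had the smallest unadjusted p between invasive carcinoma and carcinoma in situ, 0.00301, with a log2 fold change of 0.33 and an adjusted p of 0.624. At the in situ stage it was 0.35 ± 0.13 against normal (adjusted p = 0.033), or 0.24 without D02 (adjusted p = 0.247), and it did not pass without D03, C01, C02 or C11 either (0.31 to 0.40).

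The other sterol enzymes had smaller fold changes in invasive carcinoma against normal, though at the in situ stage Hsd17b7 (0.58) lay above Msmo1 (0.56). That in situ call of Hsd17b7 was lost without D02, D03 or C02 (0.42 to 0.55). Hsd17b7, a reductase of the same demethylation steps, had a log2 fold change of 0.59 ± 0.19 (adjusted p = 0.0131) in invasive carcinoma against normal, which did not pass without D02 (0.43) or D03 (0.56). Cyp51, lanosterol demethylase, had 0.40 ± 0.14 (adjusted p = 0.0171), or 0.24 without D02 (adjusted p = 0.221) and 0.34 without C09 (adjusted p = 0.0523). For Ebp, a sterol isomerase, it was 0.29 ± 0.12 (adjusted p = 0.0438), or 0.21 without D02 (adjusted p = 0.245), and the call was also lost without D01, A01, A04, A08, B03, B07, C02, C10, C08 or C09 (0.22 to 0.30). Sc5d, a sterol desaturase, had 0.21 (adjusted p = 0.0302), also lost without D02 (0.14), D03, C09 or C12. Lss, which closes lanosterol, and Dhcr7 were called in dysplasia against hyperplasia (0.36 ± 0.10, adjusted p = 0.0275, and 0.34 ± 0.09, adjusted p = 0.0253), both lost without A01, A04, B03, B04 or B06, and also without B05 for Lss and B07 for Dhcr7. Tm7sf2, a sterol reductase whose step Lbr can also carry out, stayed between -0.11 and 0.09 in all 8 comparisons, none called, and 532 of its exon bases overlap Vps51 on the same strand.

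Fdft1 was the one cholesterol enzyme called lower against normal tissue. It encodes squalene synthase, the step that commits farnesyl diphosphate to sterols. Its CPM was 194 in D01, 120.0 in D02 and 124 in D03; the lowest, median and highest values were 85.8, 102 and 109 in hyperplasia, 107, 124 and 132 in dysplasia, 96.0, 113 and 146 at the in situ stage and 91.5, 112 and 118 at the invasive stage. Fdft1 was called lower in hyperplasia (-0.56 ± 0.12, adjusted p = 0.00168), carcinoma in situ (-0.32 ± 0.12, adjusted p = 0.0398) and invasive carcinoma (-0.41 ± 0.12, adjusted p = 0.00791) against normal. Without D01 these log2 fold changes were -0.31 (adjusted p = 0.0564), -0.05 (adjusted p = 0.777) and -0.13 (adjusted p = 0.359), so these calls rest on that library, and that at the in situ stage was also lost without C04, C07, C10 or C11 (-0.31 to -0.27). Between dysplasia and hyperplasia it was 0.30 ± 0.09 (adjusted p = 0.0533), with 6 of the 7 dysplasia samples above all hyperplasia samples. Its exons overlap those of Ctsb on the opposite strand over 774 bases, and the strand setting of the counting is not given in the sources used here.

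Stard4, a carrier that moves sterols between membranes, was higher in both carcinoma stages. It had 37.2, 31.4 and 37.5 CPM in the normal samples; the lowest, median and highest values were 27.6, 32.7 and 36.7 in hyperplasia, 30.1, 43.0 and 51.8 in dysplasia, 37.0, 45.0 and 62.1 at the in situ stage and 43.1, 45.2 and 53.2 at the invasive stage. Every invasive sample lay above the normal range, and 6 of 7 dysplasia samples lay above all hyperplasia samples. Stard4 had a log2 fold change of 0.40 ± 0.14 (SE, adjusted p = 0.0205) in invasive carcinoma against normal, or 0.33 without D02 (adjusted p = 0.128), and 0.36 without C09 (adjusted p = 0.0522). At the in situ stage it was 0.43 ± 0.14 against normal (adjusted p = 0.0184), or 0.35 without D02 (adjusted p = 0.126), 0.34 without C01 (adjusted p = 0.0529) and 0.38 without C02 (adjusted p = 0.0505). In dysplasia against hyperplasia it was 0.40 ± 0.10 (adjusted p = 0.0196), or 0.35 without B05 (adjusted p = 0.0554) and 0.37 without B06 (adjusted p = 0.0561).

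Of the 8 fatty acid genes 3 were higher in invasive carcinoma against normal (Acly, Scd2 and Fads2), 1 was lower (Lpin1) and 4 did not pass. The share called, 50%, lies near the 46.1% of all tested genes. Acly, which splits citrate into the acetyl-CoA used for both fatty acids and sterols, had 128, 97.7 and 128 CPM in the normal samples; the lowest, median and highest values were 117, 130.0 and 154 in hyperplasia, 148, 155 and 171 in dysplasia, 114, 152 and 196 at the in situ stage and 129, 146 and 182 at the invasive stage. All 7 dysplasia samples lay above normal tissue, while carcinoma in situ overlapped it. Acly had a log2 fold change of 0.40 ± 0.12 (SE, adjusted p = 0.0177) in dysplasia against normal and 0.34 ± 0.12 (adjusted p = 0.0252) in invasive carcinoma against normal. Without D02 these were 0.28 (adjusted p = 0.199) and 0.23 (adjusted p = 0.203), and without C12 the value for invasive carcinoma was 0.28 (adjusted p = 0.0636).

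Fasn, fatty acid synthase, passed only in dysplasia against normal. It had 123, 80.9 and 111 CPM in the normal samples; the lowest, median and highest values were 91.6, 122 and 130.0 in hyperplasia, 141, 174 and 188 in dysplasia, 86.6, 157 and 248 at the in situ stage and 102, 134 and 186 at the invasive stage. The 7 dysplasia samples lay above all normal and all hyperplasia samples, and both carcinoma stages reached from the normal range to beyond it. For Fasn in dysplasia the log2 fold change was 0.68 ± 0.22 (SE, adjusted p = 0.0255) against normal, or 0.52 without D02 and 0.72 without D03, neither of which passed, and 0.50 ± 0.16 (adjusted p = 0.0667) against hyperplasia. Acaca, acetyl-CoA carboxylase, which makes the malonyl-CoA that Fasn uses, ranged from -0.11 to 0.22 in the 8 comparisons and passed none.

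Scd2 (ENSMUSG00000025203.6, chr19:44293674-44306864, plus strand) and Scd1 (ENSMUSG00000037071.3, chr19:44394455-44407879, minus strand) are neighbouring stearoyl-CoA desaturases that make monounsaturated fatty acids. Scd2 passed in 3 of the 8 comparisons and Scd1 in none, but whether their fold changes differ was not tested. Scd2 had 152, 136 and 176 CPM in the normal samples; the lowest, median and highest values were 153, 176 and 219 in hyperplasia, 160.0, 209 and 259 in dysplasia, 221, 276 and 400.0 at the in situ stage and 214, 298 and 549 at the invasive stage. All 12 carcinoma samples lay above all normal samples, and 9 of them above all premalignant samples. Scd2 averaged 322 ± 116 CPM in invasive carcinoma (SD, n = 6) and 155 ± 20.3 CPM in normal tissue (SD, n = 3). Its log2 fold change was 1.06 ± 0.21 (SE, adjusted p = 2.2e-04) there, the highest of the 31 genes, and 0.89 ± 0.21 (adjusted p = 0.00161) in carcinoma in situ. In carcinoma against premalignant tissue it was 0.65 ± 0.11 (adjusted p = 6.8e-05). C12, the sample at 549 CPM, also had the highest basal keratinocyte marker sum, 20792 CPM.

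Scd1 passed in none of the 8 comparisons, and single samples stood far above their stage. Its CPM was 56.1, 46.9 and 44.5 in the normal samples, and its medians were 47.1 in hyperplasia, 45.2 in dysplasia, 65.2 at the in situ stage and 69.9 at the invasive stage. A08 had 111 CPM where the other hyperplasia samples had 42.5 to 50.5, B01 had 134 where the other dysplasia samples had 38.0 to 53.0, and C11 had 248 where the other carcinoma in situ samples had 49.7 to 80.6. B01 and C11 had the highest adipocyte marker sums of their stages, 605 and 471 CPM, and A08 and B01 the highest salivary gland sums, 21175 and 35889 CPM. C11, however, had the lowest salivary gland sum of its stage, 44.0 CPM, and A08 an adipocyte sum of 486 CPM, against 519 in A04. The log2 fold change of Scd1 was 0.93 ± 0.46 (SE, adjusted p = 0.108) in carcinoma in situ against normal and 0.51 (adjusted p = 0.369) in invasive carcinoma.

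**Figure D4:**
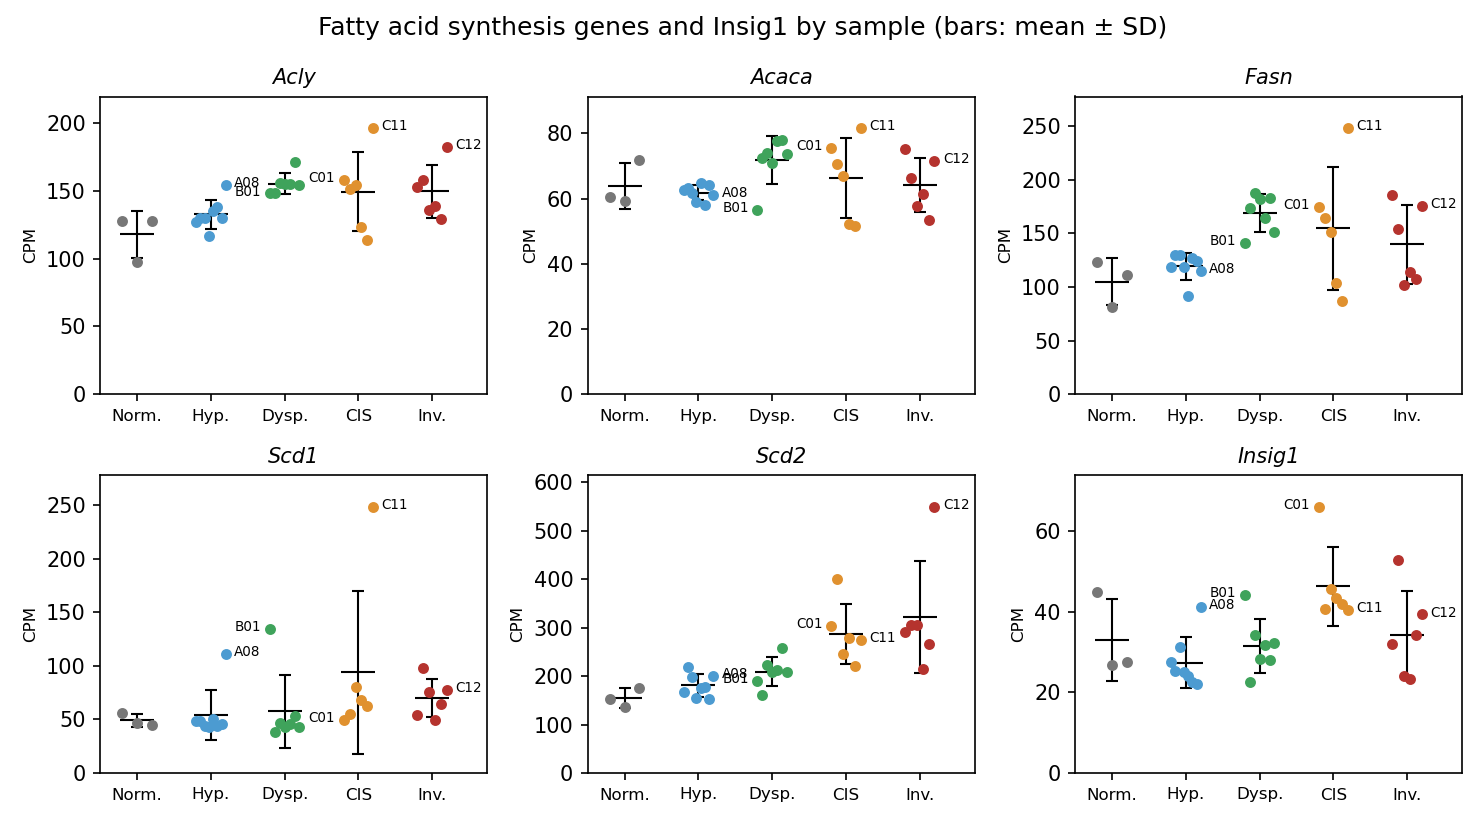
CPM of 5 fatty acid genes and Insig1 in every sample by stage (abbreviations: Norm., normal; Hyp., hyperplasia; Dysp., dysplasia; CIS, carcinoma in situ; Inv., invasive carcinoma), each point 1 sample, with bars for the mean and SD and with the codes of 5 samples. Scd1 is at 248 CPM in C11, 134 in B01 and 111 in A08, Scd2 at 549 in C12, and Insig1 at 65.9 in C01.

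Fads2 and Fads1, the delta-6 and delta-5 desaturases of polyunsaturated fatty acids, lie near each other on chromosome 19. Fads2 (ENSMUSG00000024665.8, chr19:10062765-10101746, minus strand) had 21.0, 22.0 and 21.4 CPM in the normal samples; the lowest, median and highest values were 30.9, 39.5 and 51.0 in hyperplasia, 23.3, 36.0 and 44.4 in dysplasia, 33.4, 35.9 and 36.3 at the in situ stage and 32.3, 35.1 and 44.6 at the invasive stage. Each of the 27 samples of the 4 later stages lay above each normal sample. The log2 fold change against normal was 0.90 ± 0.14 (SE, adjusted p = 8.6e-05) in hyperplasia, 0.70 ± 0.14 (adjusted p = 9.3e-04) in dysplasia, 0.73 ± 0.14 (adjusted p = 3.6e-04) in carcinoma in situ and 0.76 ± 0.14 (adjusted p = 1.2e-04) in invasive carcinoma. Between dysplasia and hyperplasia it was -0.20 (adjusted p = 0.246). Fads1 ranged from -0.17 to 0.22 in the 8 comparisons and passed none, but whether it differed from Fads2 was not tested.

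Lpin1 (ENSMUSG00000020593.16, chr12:16535669-16610966, minus strand), which encodes a phosphatidate phosphatase of triglyceride synthesis that is abundant in muscle and fat, was the gene with the lowest fold change. It had 362, 306 and 286 CPM in the normal samples; the lowest, median and highest values were 152, 189 and 207 in hyperplasia, 130.0, 156 and 164 in dysplasia, 82.4, 128 and 210.0 at the in situ stage and 60.0, 111 and 157 at the invasive stage. Each sample of the later stages lay below each normal sample. Lpin1 averaged 107 ± 33.3 CPM in invasive carcinoma (SD, n = 6) and 318 ± 39.3 CPM in normal tissue (SD, n = 3). The log2 fold change against normal was -0.81 ± 0.19 (SE, adjusted p = 0.00599) in hyperplasia, -1.09 ± 0.20 (adjusted p = 5.3e-04) in dysplasia, -1.27 ± 0.20 (adjusted p = 7.1e-05) in carcinoma in situ and -1.57 ± 0.20 (adjusted p = 3.8e-06) in invasive carcinoma. It was also lower in carcinoma than in premalignant tissue (-0.47 ± 0.12, adjusted p = 0.00252). With the skeletal muscle score in the fit all 5 comparisons stayed called, with -0.97 in invasive carcinoma and -0.63 in hyperplasia against normal. With the basal keratinocyte score the values were -0.59 in hyperplasia (adjusted p = 0.00641) and -0.72 in invasive carcinoma (adjusted p = 0.0464), both called. The calls were lost there in dysplasia (-0.55, adjusted p = 0.0567) and in carcinoma in situ against normal (-0.50, adjusted p = 0.158), and in carcinoma against premalignant tissue (-0.04, adjusted p = 0.853).

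To see which genes varied together apart from stage, each gene's log2 CPM minus its stage mean was set against Hmgcs1 and against 5 marker scores over the 30 samples, 185 relations in all, of which 35 passed (two-sided permutation within stages, 100000 resamples, Benjamini-Hochberg over the 185). Against Hmgcs1 12 of the 30 other genes passed, all positive, with a median r of 0.45, or 0.38 without C01 and C10, the samples farthest from the median. For Lss r was 0.85 and rho 0.79 (permutation p = 1e-05 for r, the smallest the resampling can give, and 2.0e-05 for rho, adjusted p = 6.2e-04 and 0.00185), and r was 0.81 without C01 and C10. For Sqle r was 0.76 and rho 0.69 (permutation p = 7.0e-05 and 4.1e-04, adjusted p = 0.00148 and 0.0074), and for Mvd r was 0.69 and rho 0.69 (permutation p = 8.0e-05 and 1.1e-04, adjusted p = 0.00148 and 0.00254). These r were 0.71 and 0.66 without those 2 samples. Stard4, Cyp51, Msmo1, Hsd17b7, Fdft1, Fdps and Idi1 passed as well, from 0.58 to 0.84. Srebf2 (r = 0.54, rho = 0.49) and Fads2 (r = 0.50, rho = 0.40) passed by r and missed the threshold by rho (permutation p = 0.0134 and 0.018, adjusted p = 0.0649 and 0.0756). Fasn (r = 0.49, rho = 0.53) and Scd2 (r = 0.35, rho = 0.51) passed by rho (permutation p = 0.0076 and 0.00628, adjusted p = 0.0402 and 0.0363) and missed it by r (permutation p = 0.0352 and 0.0422, adjusted p = 0.138 and 0.15). These relations share libraries, depth and tissue makeup. The share of all tested genes that would pass against Hmgcs1 or a marker score is not given here. Whether the count against Hmgcs1 is particular to the genes described here was not tested.

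Each marker score covaried with fewer genes than Hmgcs1 did. Against the basal keratinocyte score 7 of 31 passed: Scap, Dhcr7, Sqle, Stard4, Scd2 and Msmo1 were positive and Lpin1 was negative (r = -0.74, rho = -0.65, permutation p = 1.2e-04 and 4.5e-04, adjusted p = 0.00185 and 0.0074, and r = -0.71 without C12 and B01). For Sqle r was 0.70 and rho 0.70 (permutation p = 1e-05 and 9.0e-05, adjusted p = 6.2e-04 and 0.00254), and r was 0.65 without those 2 samples. Against the skeletal muscle score 8 passed, Lpin1 with r = 0.75 and rho = 0.70 (permutation p = 1e-05 and 5.0e-05, adjusted p = 6.2e-04 and 0.00231, and r = 0.66 without C12 and B06), and Scap, Dhcr7, Scd2, Sqle, Msmo1, Idi1 and Sc5d with negative r. Scd1 followed the adipocyte score (r = 0.79, rho = 0.64, permutation p = 5.0e-05 and 4.1e-04, adjusted p = 0.00132 and 0.0074, and r = 0.66 without B01 and A08), and Insig1 the salivary gland score (r = 0.68, rho = 0.63, permutation p = 3.3e-04 and 9.9e-04, adjusted p = 0.00382 and 0.0108, and r = 0.59 without D01 and A08). Insig1 also passed against the adipocyte score (r = 0.61, rho = 0.57, permutation p = 0.00145 and 0.00307, adjusted p = 0.0107 and 0.0218, and r = 0.46 without B01 and A08), and Lpin1 against the Schwann cell score (r = 0.73, rho = 0.63, permutation p = 8.0e-05 and 0.00141, adjusted p = 0.00148 and 0.0124, and r = 0.64 without C05 and C04). The other relations that passed by r were negative, those of Fads2 with the adipocyte and salivary gland scores, which missed the threshold by rho, and those of Scap and Dhcr7 with the Schwann cell score. Passing by rho only were Cyp51 (rho = 0.54, adjusted permutation p = 0.0387) and Hsd17b7 (rho = 0.54, adjusted permutation p = 0.032) against the basal keratinocyte score. Cyp51 did so against the skeletal muscle score too (rho = -0.53, adjusted permutation p = 0.0316).

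**Figure D5:**
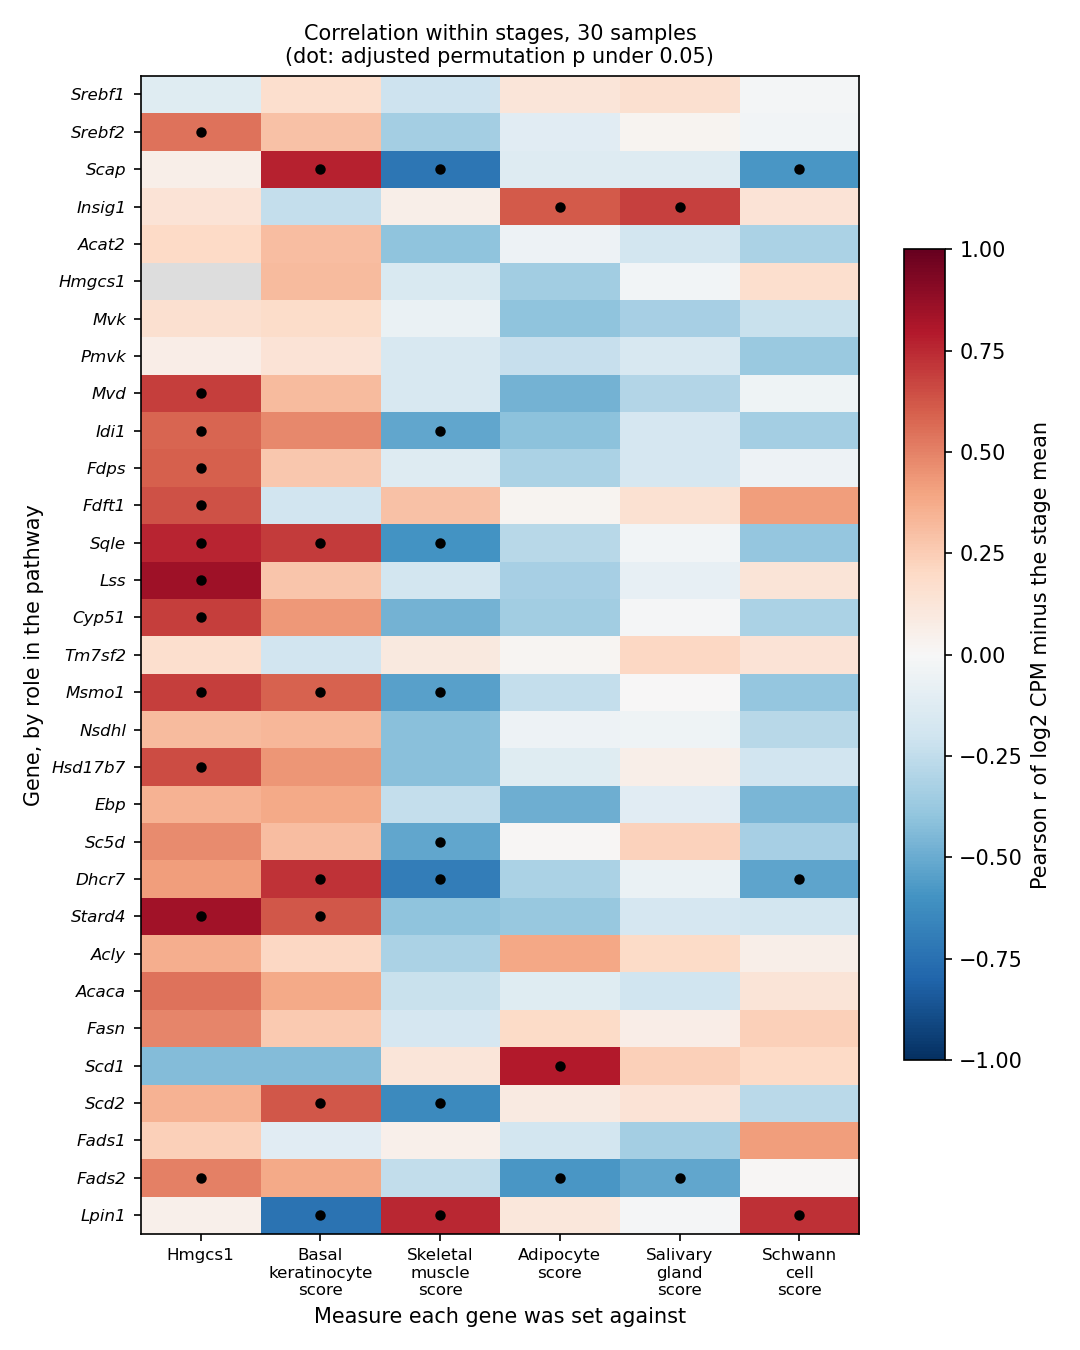
Pearson r over 30 samples between each gene (rows, by role) and Hmgcs1 or 1 of 5 marker scores (columns), all as log2 CPM minus the stage mean; dots mark an adjusted permutation p under 0.05. The Hmgcs1 column has 12 dots, and the basal keratinocyte, skeletal muscle, adipocyte, salivary gland and Schwann cell columns have 7, 8, 3, 2 and 3.

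Other genes of the same pathways, from lists that are not part of the 31, are given for comparison in invasive carcinoma against normal. Of 25 tested genes of fatty acid and glycerolipid synthesis 10 were higher, where 23.4% of all tested genes were higher and 22.7% lower, among them Slc25a1, the mitochondrial citrate carrier (log2 fold change 0.84 ± 0.12 SE, adjusted p = 1.1e-05), and Hacd3, a dehydratase of very long chain fatty acids (0.83 ± 0.12, adjusted p = 1.0e-05). In the same list 6 were lower, a share near that of all genes, among them Acsl1 (-1.40 ± 0.20, adjusted p = 1.0e-05) and Acacb, the mitochondrial acetyl-CoA carboxylase (-1.23 ± 0.22, adjusted p = 9.2e-05). Of 8 LXR and efflux genes 1 was higher and 1 lower, or 25% called against 46.1% of all tested genes.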

How the data were processed

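RNA-seq read counts per gene of 30 samples were used as the authors deposited them, as whole-number counts in one table. Per the labels' protocols, libraries were made with a stranded TruSeq mRNA kit; per the submitters' processing notes, cutadapt 2.4, STAR 2.7.2a and the GRCm38 build were used. The counting tool, its strand setting and annotation are not given in the sources used here. GENCODE M21 supplied symbols and positions (99.53% of identifiers matched).

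Counts were filtered with filterByExpr and TMM-scaled in edgeR 4.0.16 (R 4.3.3; factors 0.892 to 1.057). One quasi-likelihood fit with a mean per stage over all 30 samples gave 8 contrasts. Benjamini-Hochberg adjustment ran over 17638 genes, with a threshold of 0.05. The log2 CPM behind the covariation and the marker scores used a prior count of 2. The common dispersion was 0.0576. The fit was tested on simulated data. CPM is counts over TMM-scaled library size; CPM per kb divides by merged exon length. DESeq2 1.42.0 and limma-voom (limma 3.58.1) were alternatives, as were other scalings, filters, covariates, a replicate block, samples left out and a threshold of 0.01. The 31 genes and all lists were chosen with earlier results of these data known. Values by sample are printed for the 12 genes with the smallest adjusted p, for Acly, which was the smallest of its role, and for Hmgcs1, Fdft1, Fasn, Insig1, Fdps and Scd1, which were added after their values were seen. The labels do not say that samples came from separate animals, so p-values measure only the spread between these samples, which may be technical. A comparison list of other sterol genes is not reported here.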

Additional observations from a re-analysis of the deposited data

Results flagged for a closer look

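Of 124 sets of values, 1 gene in 1 stage each, 15 held a sample whose gap to its nearest neighbour was large against the range of the stage (Dixon's criterion); chance flags about 1 in 20 groups, or 6.2 here. Dysplasia sample B01 accounted for 4 of them and invasive sample C12 for 2. In dysplasia, B01 was low for Mvd (21.4 CPM, others 27.0 to 31.2), Dhcr7 (46.5 CPM, others 64.3 to 72.3) and Acaca (56.4 CPM, others 70.9 to 77.9) and high for Scd1 (134 CPM, others 38.0 to 53.0), and B06 was high for Acly (171 CPM, others 148 to 156).

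In invasive carcinoma, C12 was low for Fdft1 (91.5 CPM, others 110.0 to 118) and high for Scd2 (549 CPM, others 214 to 306), and C09 was high for Hsd17b7 (67.8 CPM, others 38.0 to 45.5). In carcinoma in situ, C01 was high for Insig1 (65.9 CPM, others 40.3 to 45.6), C02 for Dhcr7 (87.9 CPM, others 57.6 to 68.3) and C11 for Scd1 (248 CPM, others 49.7 to 80.6), and C10 was low for Fads2 (33.4 CPM, others 35.7 to 36.3). In hyperplasia, A03 was high for Ebp (64.5 CPM, others 45.8 to 51.9) and A08 for Scd1 (111 CPM, others 42.5 to 50.5), and A05 was low for Fasn (91.6 CPM, others 115 to 130.0). B01 and A08 had the highest salivary gland marker sums of their stages and the lowest basal keratinocyte sums (5559 and 5447 CPM); the part of these in the values was not tested.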

How the results depend on the processing

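With the basal keratinocyte score in the fit, the counts of the 31 genes called were 1 in dysplasia, 0 at the in situ stage and 1 at the invasive stage against normal, 3 in dysplasia against hyperplasia and 2 in carcinoma against premalignant tissue. In that fit 5 calls turned sign: Scap (-0.0551) and Stard4 (-0.0104) in carcinoma in situ against normal, Stard4 (-0.0757) in invasive carcinoma, and Dhcr7 (-0.0459) and Scap (-0.0389) in carcinoma against premalignant tissue. None of these 5 values was called there (edgeR quasi-likelihood test, adjusted p from 0.638 to 0.985). With the skeletal muscle score the counts were 2, 4 and 5 against normal, 4 in dysplasia against hyperplasia and 1 in carcinoma in situ against dysplasia. In the last comparison other counts were 1 with upper quartile scaling or the salivary score, 2 with DESeq2 or the adipocyte score and 3 with voom or without D01, B01 and C12, a setting chosen after seeing the data, which gave 19 in dysplasia against hyperplasia. Voom gave 18 in dysplasia against normal and 22 in dysplasia against hyperplasia. Fitting only the groups compared gave 10 at the in situ stage and 13 at the invasive stage against normal and 20 in dysplasia against hyperplasia; no filter gave 10 in carcinoma in situ. A threshold of 0.01 gave 5 in dysplasia and 8 in carcinoma in situ against normal and 5 in dysplasia against hyperplasia. Leaving out 1 sample gave 2 to 3 in hyperplasia, 2 to 15 in dysplasia, 6 to 21 at the in situ stage and 14 to 22 at the invasive stage against normal, 6 to 19 in dysplasia against hyperplasia, 0 to 2 in carcinoma in situ against dysplasia, 0 in invasive carcinoma against carcinoma in situ and 19 to 21 in carcinoma against premalignant tissue. The cause of these shifts was not tested. Shares of all tested genes called under these settings are not given here, so the shifts may not be particular to the 31 genes.

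Sample code numbers recur across stages. Deviations of same-numbered samples from their stage means correlated between -0.56 and 0.51. Because the tissue pieces also differed in what they held, these values cannot show whether such samples share more than the number. With it as a replicate block 3, 9, 20 and 10 genes were called at the 4 stages in order against normal, 17 in dysplasia against hyperplasia, 1 in carcinoma in situ against dysplasia and 17 in carcinoma against premalignant tissue; both carcinoma stages share no numbers. Of 85 calls of a gene in a comparison, the number kept was 84 with DESeq2, 81 with its size factors in edgeR, 82 with voom, 65 with the block, 64 with no filter, 67 with only the groups compared, 33 with the skeletal muscle score and 9 with the basal keratinocyte score. Lpin1 in hyperplasia and invasive carcinoma, Fads2 in hyperplasia and dysplasia against normal, Fdps, Mvd and Srebf2 in dysplasia against hyperplasia and Insig1 in carcinoma against premalignant tissue were called under every setting run. The 3 normal samples limit the precision of every fold change against normal, and 34 to 164 counts per sample that of Fdps.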
